A study of Mus musculus with 3 samples.

Results

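CD8 T cells were taken from 3 single-cell RNA libraries of mouse liver. A barcode was a member when it had at most 30% mitochondrial UMIs, at least 1 UMI (a unique molecular identifier, which marks a captured RNA molecule) in Cd3d, Cd3e, Cd3g or Trac, at least 1 UMI in Cd8a or Cd8b1, and 0 UMIs in Cd4, Cd79a, Siglech and Clec4f. This rule found 1950 members among 36990 barcodes. The libraries came from male wild-type C57BL/6 mice aged 8 weeks at the start, and each pooled the cells of 2 mice, with hepatocytes and nonparenchymal cells mixed 1:1 before loading. CON was the control library. HFD came from mice kept for 4 months on a diet that drew 60% of its energy from fat. CCL4 came from mice kept on chow for 3 months and then injected with 0.1 mL of 10% carbon tetrachloride, a toxin that injures hepatocytes, 2 times a week for 4 weeks. With 1 library per condition there was no replicate of a condition, so no p-value is given between libraries, and condition, mice and library cannot be told apart.

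CD8 T cells recognise peptides on MHC class I molecules through an alpha-beta T cell receptor, with CD8 as coreceptor. Naive cells circulate through lymph nodes, guided by CCR7 and maintained by the transcription factors TCF7 and LEF1. After antigen, CD8 T cells acquire granzymes, perforin and chemokines such as CCL5, and some stay in the liver as resident memory cells that carry CXCR6 and PD-1.

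The CON library held 809 members, HFD 557 and CCL4 584. Members were 7.19% of the barcodes in CON (95% Clopper-Pearson interval 6.72 to 7.69), 4.29% in HFD (3.95 to 4.65) and 4.58% in CCL4 (4.22 to 4.95). These shares are set by the mixing of hepatocytes with other cells as well as by the liver itself. The whole libraries held 49613255, 34985786 and 34061186 UMIs, and a member held a median of 2546 UMIs and 1342 genes in CON, 2306 and 1164 in HFD, and 2087.5 and 1020 in CCL4. All intervals here cover counting error only.

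The 4 genes that define the cells were detected in every library. Levels are given as CPM, the UMIs of a gene per 1e6 UMIs of the cell group, always in the order CON, HFD and CCL4. Cd8a was at 350, 267 and 242 CPM and Cd8b1 at 387, 362 and 398 CPM. Cd3e was at 597, 404 and 337 CPM and Trac at 433, 349 and 295 CPM. The rule used these genes, so their levels only describe the choice. Trbc2, which the rule did not use and which encodes a constant region of the T cell receptor beta chain, was at 579, 329 and 456 CPM, against 15.8, 5.04 and 12.0 CPM in B cells chosen by Cd79a.

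Coreceptor UMIs were sparse. Cd8a alone was seen in 247, 172 and 172 members, Cd8b1 alone in 263, 259 and 323, and both genes in 299, 126 and 89. Members with exactly 1 UMI on each side of the gate numbered 25, 59 and 117, so CCL4 held the most cells at the edge. Their Trbc2 level was 271, 194 and 337 CPM, against 640, 396 and 582 CPM in members with at least 2 UMIs on each side. Just outside the gate, barcodes with a CD3 or Trac UMI but neither CD8 nor Cd4 numbered 1052, 1392 and 1261, with Trbc2 at 338, 252 and 291 CPM. The rule therefore left out barcodes with T cell genes and no captured coreceptor. Barcodes with CD8 but no CD3 or Trac UMI numbered 47, 96 and 123.

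**Figure D1:**
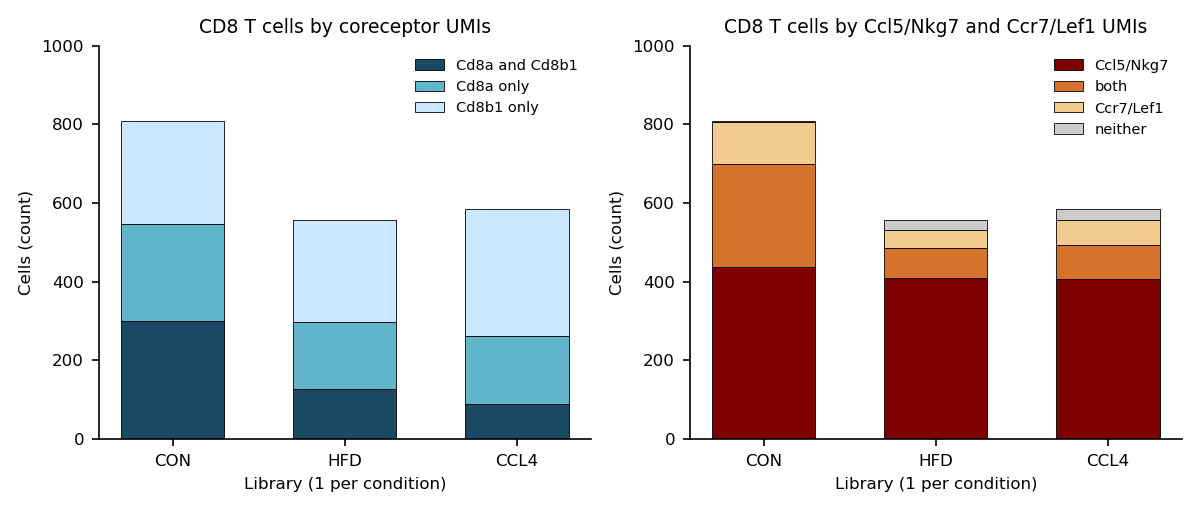
Stacked bars of the number of CD8 T cells in the CON, HFD and CCL4 libraries (y axis, cells). The left panel splits them by Cd8a and Cd8b1 UMIs and the right panel by UMIs in Ccl5 or Nkg7 and in Ccr7 or Lef1; cells with both coreceptor genes numbered 299 in CON and 89 in CCL4, while Ccl5/Nkg7 cells numbered 437, 409 and 408.

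RNA of other cell types was measured beside these cells. The 12 hepatocyte genes made up 3.95% of the members' UMIs in CON, 11.1% in HFD and 16.0% in CCL4. The same list made up 5.22%, 10.5% and 17.6% in B cells and 4.50%, 11.7% and 17.2% in natural killer (NK) cells, so it differed by library alike in all lymphocytes. Granulocyte genes summed to 877, 111 and 90.0 CPM, led by S100a9 at 398, 53.2 and 49.5 CPM. NK genes summed to 456, 243 and 137 CPM, B cell genes to 546, 3004 and 613 CPM, macrophage genes to 133, 201 and 45.0 CPM, and gamma delta T cell genes to 86.9, 66.5 and 57.0 CPM. The B cell sum in HFD was mostly Igkc, at 2854 CPM, and 1 member held 3169 of the 4079 Igkc UMIs. The remaining lists gave 381, 170 and 238 CPM for regulatory T cells, with Foxp3 at 0 in HFD, 101, 42.7 and 63.7 CPM for invariant T cells, 51.5, 62.3 and 29.2 CPM for dendritic cells, 67.3, 65.1 and 55.5 CPM for endothelial cells, 159, 359 and 78.7 CPM for cholangiocytes, and 2775, 2364 and 2710 CPM for erythroid cells. The part of these RNAs in the results was not tested.

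CD4 T cells, chosen by the mirror rule with Cd4 in place of CD8, numbered 240, 122 and 45. Compared with them, CD8 T cells had more RNA of killer genes and less of the tested genes of the regulatory T cell list. UMIs were summed per library and cell group and tested with edgeR's quasi-likelihood test with library as a block and Benjamini-Hochberg adjustment over 8577 genes, and the gate genes were left out. Of these genes 58 (0.676%) were higher in CD8 T cells and 56 (0.653%) were lower. Each pair of sums came from the same mice, and the spread also held differences between conditions. Without the block no gene passed in either direction in edgeR, where 50 genes were higher and 85 lower at an unadjusted p under 0.05, and DESeq2 with the block called 13 and 21. Without the CCL4 library, where only 45 CD4 T cells were found, 36 genes were higher.

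Gzma, a granzyme secreted onto target cells, showed the widest gap among the killer genes. It was at 1175, 1071 and 174 CPM in CD8 T cells and at 49.2, 79.4 and 19.6 CPM in CD4 T cells. CD8 T cells were higher in all 3 libraries, with a log2 fold change of 4.22 (SE 0.19, adjusted p = 1.96e-12 in edgeR), and the ranges of the groups did not overlap. Of 14 cytotoxic effector genes tested, 9 were higher in CD8 T cells and none was lower, with a median log2 fold change of 1.21 against 0.02 over all genes tested. Without the CCL4 library 5 of these genes were higher, and without CON 7 were higher and 1, the granule proteoglycan gene Srgn, was lower. The 9 were Gzma, Gzmb, Prf1, Nkg7, Ctsw, Ccl3, Ccl4, Ccl5 and Xcl1. The chemokine gene Ccl4, which is unrelated to the toxin, was at 2174, 1428 and 931 CPM in CD8 T cells and at 662, 370 and 0 CPM in CD4 T cells. Ccl5 did not separate the cells in CON, where it was at 9284 CPM in CD8 and 9422 CPM in CD4 T cells, whereas CD8 T cells had the higher level in HFD (8104 against 1872 CPM) and CCL4 (7103 against 617 CPM).

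Killer cell lectin-like receptors, which sense MHC class I and stress ligands, followed the same direction. Of 7 tested, 5 were higher (Klrd1, Klre1, Klrc1, Klrk1 and Klrc2) and none lower, with a median of 1.76, and without CON 3 of 5 tested were higher. Klrd1, the CD94 partner of the NKG2 receptors, was at 408, 260 and 121 CPM against 42.4, 39.7 and 19.6 CPM in CD4 T cells. Its log2 fold change was 3.09 (SE 0.20, adjusted p = 2.44e-09 in edgeR). Klrk1, which encodes the activating receptor NKG2D, differed by 1.76 (SE 0.22). Klrc1 and Klrc2 are close paralogues, so reads may be split between them and their single values are uncertain. Of 9 effector transcription and terminal effector genes, Ly6c2 (2.54, SE 0.20), Zeb2 (1.69, SE 0.31) and Cx3cr1 (2.48, SE 0.49) were higher. The calls of Zeb2 and Klrk1 were lost without CON, and that of Zeb2 also without CCL4 and in DESeq2. DESeq2 did not call Ccl4 either.

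Of 12 genes of naive and central memory cells, 3 were higher in CD8 T cells. These were Ccr7 (1.25, SE 0.23), the lymph node homing receptor, Klf2 (0.58, SE 0.11), which keeps homing genes on, and Dapl1 (1.92, SE 0.38), and without CON only 1 of the list passed. DESeq2 did not call Dapl1. Of 7 tissue residency genes, 0 passed in edgeR, 0 in DESeq2 and 0 at an unadjusted p under 0.05 in edgeR. Both gamma delta constant region genes tested, Trgc2 (2.18, SE 0.40) and Trgc4 (2.10, SE 0.52), were higher, neither of them without CON and Trgc4 not without HFD or CCL4 either, while Trdc was at only 8.08, 4.20 and 3.75 CPM in CD8 T cells.

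The genes lower in CD8 T cells were led by Tnfrsf4, the costimulatory receptor OX40, at 3.85, 8.40 and 5.25 CPM against 79.3, 103 and 68.6 CPM. Its log2 fold change was -3.87 (SE 0.30, adjusted p = 5.89e-08 in edgeR). Maf, a transcription factor of helper T cells, was at 90.0, 72.1 and 159 CPM against 1003, 470 and 372 CPM (-2.61, SE 0.25). Areg, an epidermal growth factor family ligand, differed by -3.43 (SE 0.36) and Icos, a costimulatory receptor, by -1.60 (SE 0.18). All 4 tested genes of the regulatory T cell list were lower, namely Ikzf2 (-1.79), Ctla4 (-1.23), Tnfrsf18 (-1.62, not called in DESeq2) and Il2ra (-2.42). Cd40lg, the helper signal to B cells, was at 5.00, 6.30 and 2.25 CPM in CD8 and 34.2, 23.2 and 29.4 CPM in CD4 T cells, and Gata3 differed by -1.30 (SE 0.26). Of 14 receptor signalling genes, Cd5 (-0.93) and Cd28 (-0.61) were lower. In the lists without a gene higher and at most 2 lower were also the cytokine receptors (Il2ra, of 10), the chemokine receptors and integrins (Itgb1 and Cd44, of 10), the interferon-stimulated genes (Ly6a and Ifi27l2a, of 10) and the proliferation genes (Ube2c, of 10, which was at 0.47 in the other direction without CON). The checkpoint list of 7 had Cd160 higher and Ctla4 lower.

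NK cells numbered 647, 140 and 148. They were chosen by Ncr1 without UMIs of the T cell receptor and CD3 genes in their gate, which did not cover Trbc2. They share the killer machinery of CD8 T cells but do not rearrange a T cell receptor. Here CD8 T cells were set apart by T cell signalling, naive and checkpoint genes, and NK cells had more of most granule and receptor genes. Of 9176 genes, edgeR called 421 (4.59%) higher and 343 (3.74%) lower in CD8 T cells. Without the block the counts were 22 and 19, and without the CON library, which held most NK cells, they were 164 and 129.

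Cd6, a surface regulator of T cell activation, was at 167, 65.1 and 44.2 CPM in CD8 T cells. It had 587 UMIs in CD8 and 0 in NK cells over the 3 libraries, so that it was at least 100.0-fold higher against a floor of 3 UMIs over the group, although DESeq2 did not call it. Themis, needed for T cell receptor signals in the thymus, had 736 UMIs against 2 (CPM ratio 188, interval 51.9 to 1555), and Cd5 had 454 against 2 (116, 31.9 to 961). Of 14 receptor signalling genes, 10 were higher, among them Lat (log2 fold change 2.56, SE 0.19) and Cd28 (1.41, SE 0.12), and Ptprc was lower. Trbc2 was at 579, 329 and 456 CPM against 178, 113 and 102 CPM in NK cells, a difference of 1.79 (SE 0.11).

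Of 11 naive and central memory genes, 8 were higher in CD8 T cells and none lower, with a median of 1.35 against 0.01 over all genes. Ccr7 was at 235, 75.6 and 78.7 CPM against 3.38, 5.77 and 18.5 CPM (5.04, SE 0.37). Lef1 (2.47, SE 0.17), Tcf7 (1.51, SE 0.15) and Il7r (1.35, SE 0.12), the receptor for a survival cytokine, moved alike. Of 8 checkpoint genes, 5 were higher. Pdcd1, which encodes PD-1, had 189 UMIs in CD8 T cells against 1 in NK cells (ratio 96.6, interval 17.1 to 3834), and Havcr2 (4.40), Ctla4 (3.16), Lag3 (2.16) and Tox (1.27) also passed. Cd160 and Cd244a were lower.

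The killer genes split. Gzmk was at 107, 78.4 and 71.2 CPM in CD8 T cells and at 4.35, 2.89 and 3.09 CPM in NK cells, a log2 fold change of 4.63 (SE 0.27, adjusted p = 7.60e-11 in edgeR). Ccl5 was slightly higher in CD8 T cells (0.27, SE 0.08), although not in CON, where it was at 9284 against 9833 CPM. Of 15 cytotoxic genes, 9 were lower, and Prf1, which encodes perforin, was at 121, 46.9 and 22.5 CPM against 461, 216 and 111 CPM (-2.02, SE 0.12). Gzmb (-0.94, SE 0.09), Gzma (-1.28, SE 0.21) and Xcl1 (-2.36, SE 0.14) were also lower, and Gzmc was at 1.54, 0.700 and 0 CPM against 41.6, 136 and 15.4 CPM (-5.82, SE 0.42).

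All 10 killer cell lectin-like receptors tested were lower in CD8 T cells, with a median of -1.96. Klrb1c, an NK cell surface antigen, was at 18.5, 6.30 and 4.50 CPM against 309, 214 and 151 CPM (-4.39, SE 0.19). The Ly49 genes Klra8 (-4.99) and Klra4 (-4.83) belong to a family of near-identical copies, so their single values are uncertain. The signalling adaptors Fcer1g (-3.46, SE 0.12) and Tyrobp (-3.36, SE 0.13) were lower, as was Il2rb (-1.60, SE 0.08), a receptor chain for interleukins on which NK cells depend. Among genes that the gate could carry over, invariant T cell genes had 2 of 3 higher, and of the gamma delta genes Trgc2 was higher and Trgc4 and Trdc were lower. Igkc of the B cell list (2.09, SE 0.28) and Lyz2 of the macrophage list (0.89, SE 0.20) were higher. Itgax of the dendritic cell list was lower (-2.60, SE 0.28), and the part of these RNAs in the comparison was not tested. The granulocyte genes had 4 of 4 and the erythroid genes 3 of 4 lower, but in CCL4 the order was the reverse for S100a8 (33.0 against 0 CPM), S100a9 (49.5 against 0 CPM), Retnlg and these erythroid genes.

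**Figure D2:**
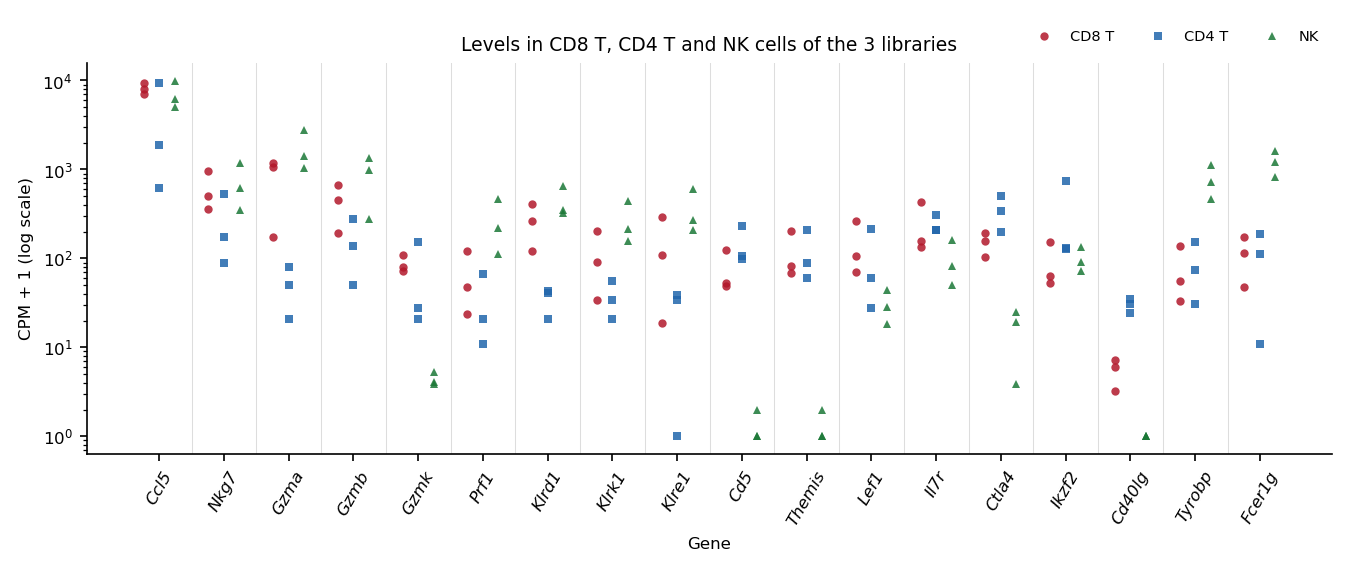
Levels of 18 genes in CD8 T cells (circles), CD4 T cells (squares) and NK cells (triangles), as CPM + 1 on a log axis; each point is 1 of the 3 libraries. Gzma in CD8 T cells (174 to 1175 CPM) lies above CD4 T cells (19.6 to 79.4 CPM), and Cd5 and Themis lie near 0 in NK cells.

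CD8 T cells were not uniform. Cells with a UMI in Ccl5 or Nkg7 and none in Ccr7 or Lef1, called Ccl5/Nkg7 cells, numbered 437, 409 and 408. Cells with the reverse, called Ccr7/Lef1 cells, numbered 105, 45 and 63. A further 263, 77 and 86 members had UMIs of both sides and 4, 26 and 27 had neither, and these were left out of the comparison. With the 4 defining genes and the gate genes left out, edgeR called 207 of 6660 genes (3.11%) higher in Ccl5/Nkg7 cells and 283 (4.25%) lower. Without the block the counts were 14 and 18, and without the CON library they were 107 and 134. The cells were split by genes measured in the same cells, so the split itself is a description. Genes that vary with the 4 defining genes differ between the groups by that choice. The p-values therefore do not show that these are separate kinds of cells.

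Of these cells, the Ccl5/Nkg7 cells held nearly all granzyme RNA. Gzma was at 1900, 1319 and 237 CPM, with 4195 UMIs over the 3 libraries against 0 in Ccr7/Lef1 cells, at least 227-fold higher. Gzmb had 2311 UMIs against 1 (ratio 376, interval 67.4 to 14847), and Gzmk had 429 against 0, at least 23.2-fold higher. The chemokine gene Ccl4 was at 3564, 1784 and 1293 CPM against 31.0, 9.39 and 0 CPM (log2 fold change 7.07, SE 0.27, adjusted p = 3.73e-24 in edgeR). In all, 10 of 12 cytotoxic genes were higher, including Ifng (4.04, SE 0.48), Prf1 (2.17, SE 0.40) and Cst7 (2.11, SE 0.41), and none was lower.

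All 4 killer cell lectin-like receptors tested were higher, with Klrk1 at 571 UMIs against 0 (at least 30.9-fold) and Klre1 at 783 against 1 (ratio 127, interval 22.8 to 5035). DESeq2 did not call Klrk1, and Klre1 was too low to be tested without the CON library, with the gate of 2 UMIs and after removal of cells with genes of other cell types. Of 7 effector genes, 5 were higher, among them the transcription factors Zeb2 (3.83, SE 0.42), Eomes (2.55, SE 0.40), Id2 (1.15, SE 0.18) and Tbx21, which encodes T-bet and had 162 UMIs against 2 (ratio 13.2, interval 3.59 to 110). Both gamma chain genes, Trgc2 (214 UMIs against 0, at least 11.6-fold) and Trgc4 (99 against 0, at least 5.37-fold), lay in these cells. The 3 NK list genes tested (Eomes, Tyrobp and Fcer1g) were also higher there, with Fcer1g in HFD at 124 against 103 CPM. The granulocyte genes S100a8 and S100a9 passed as higher (1.46, SE 0.33, and 1.34, SE 0.33), but in CCL4 they were at 30.6 and 43.7 CPM against 55.5 and 83.2 CPM in Ccr7/Lef1 cells. Markers of further cell types were higher as well, namely Spp1 of the cholangiocyte list (2.99, SE 0.37), H2-Ab1 of the dendritic cell list (2.92, SE 0.63), Ptprb of the endothelial list (3.73, SE 0.94), Ikzf2 and Ctla4 of the regulatory T cell list and Lyz2 of the macrophage list (1.33, SE 0.40), the last at 183 against 169 CPM in HFD. Pecam1 and Slamf6 were lower, and of 12 hepatocyte genes 0 passed in edgeR, 0 in DESeq2 and 0 at an unadjusted p under 0.05 in edgeR. The part of these RNAs in the comparison was not tested.

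Of 7 tissue residency genes, 6 were higher, led by the liver homing receptor Cxcr6 with 353 UMIs against 2 (ratio 28.7, interval 7.89 to 238). Rgs1, which damps chemokine signals, was at 1274, 480 and 379 CPM against 55.1, 46.9 and 20.8 CPM (4.10, SE 0.25), and Bhlhe40 differed by 1.95 (SE 0.21). Cd69, a residency and activation marker, was lower (-0.72, SE 0.18), but not without the CON or the HFD library. All 4 checkpoint genes tested were higher, with Pdcd1 at 173 UMIs against 0 (at least 9.38-fold), Tox at 1.96 (SE 0.30) and Ctla4 at 1.41 (SE 0.26). The integrin gene Itgal (1.53, SE 0.22) and the chemokine receptor gene Ccr2 (2.33, SE 0.59) were higher too.

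Of 9 naive and central memory genes, 7 were lower in Ccl5/Nkg7 cells, with a median of -2.36 against 0.02 over all genes. Tcf7 was at 57.7, 52.7 and 43.7 CPM against 620, 282 and 194 CPM in Ccr7/Lef1 cells (-2.87, SE 0.24, adjusted p = 1.34e-12 in edgeR). Il7r (-2.56, SE 0.23), S1pr1 (-2.36, SE 0.24), the receptor for exit from tissue, and Klf2 (-1.38, SE 0.15) were also lower. Dapl1 of the same list differed by -4.59 (SE 0.34). The chromatin organiser Satb1 (-2.92, SE 0.20), which stood in the list of lineage factors, and the repressor Bach2 (-2.66, SE 0.34), which stood in no list, were lower as well, and Bach2 was too low to be tested with the gate of 2 UMIs. For Gzma, Ccl4, Tcf7 and Dapl1 the ranges of the 2 groups of cells over the libraries did not overlap.

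**Figure D3:**
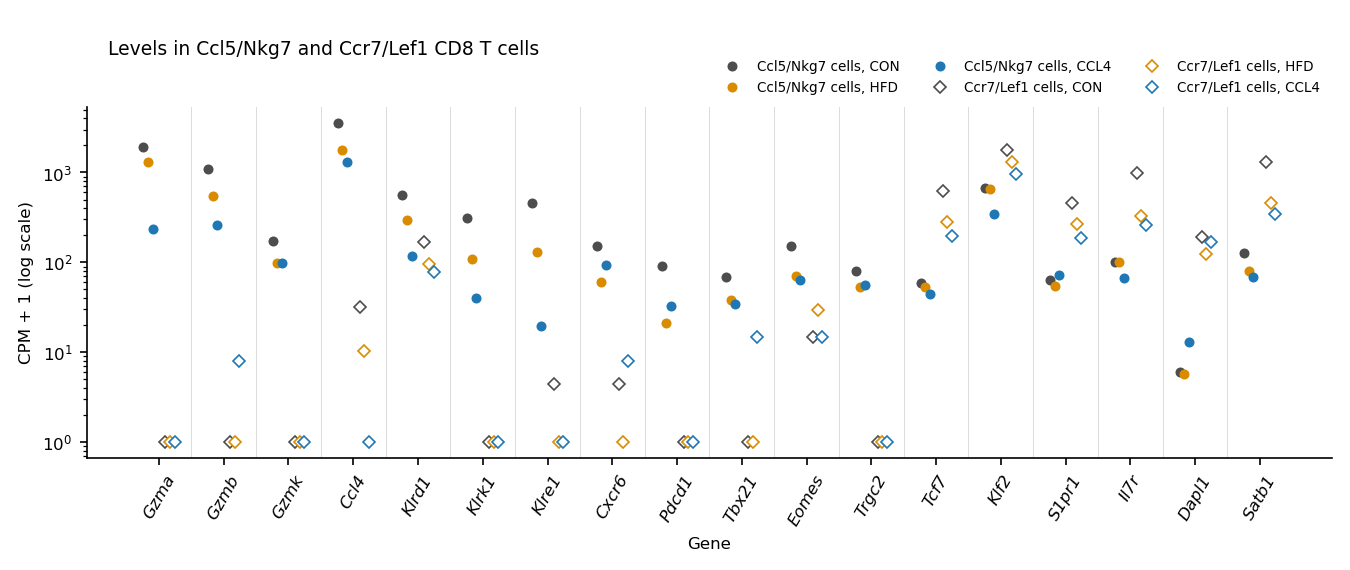
Levels of 18 genes in Ccl5/Nkg7 CD8 T cells (filled circles) and Ccr7/Lef1 CD8 T cells (open diamonds) of each library, as CPM + 1 on a log axis, where 1 stands for 0 CPM. Granzyme genes, Klrk1, Klre1, Cxcr6 and Pdcd1 are at or near 0 in Ccr7/Lef1 cells, and Tcf7, Klf2, S1pr1, Il7r, Dapl1 and Satb1 are higher there in all 3 libraries.

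The coreceptor genes marked a further difference in the CON library. Members with Cd8a but no Cd8b1 UMI carried Ikzf2 at 298 CPM, against 64.2 CPM in members with Cd8b1 alone. In HFD the levels were 73.7 and 39.0 CPM, and in CCL4 they were 44.9 and 64.9 CPM, so the order was reversed there. Fcer1g was at 308 against 141 CPM in CON, 162 against 66.0 CPM in HFD and 26.4 against 46.0 CPM in CCL4. Lef1 was lower in Cd8a-only members, at 187 against 363 CPM in CON, 63.8 against 79.5 CPM in HFD and 81.8 against 130 CPM in CCL4. At these depths a missing Cd8b1 UMI does not show that a cell lacks the CD8 beta chain, and no test was made.

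Shares of cells, as set by detected UMIs, differed between libraries. Of T cells with a UMI of CD8 or Cd4 but not of both, CD8 T cells were 77.1% (74.5 to 79.6) in CON. They were 82.0% (78.9 to 84.8) in HFD and 92.8% (90.5 to 94.7) in CCL4. Barcodes with a CD3 or Trac UMI but neither coreceptor numbered 1052, 1392 and 1261 and entered neither count. The effect of coreceptor detection on these shares was not tested. With at least 2 UMIs on each side of the gate the shares were 69.0%, 67.0% and 87.0%, so CCL4 remained highest while the order of CON and HFD changed. Ccl5/Nkg7 cells were 54.0% (50.5 to 57.5) of members in CON, 73.4% (69.6 to 77.1) in HFD and 69.9% (66.0 to 73.6) in CCL4. In B cells, which should lack these genes, the same definition held for 5.60%, 4.46% and 6.35%, at median depths of 1991, 2370 and 1978 UMIs. Thinning every cell to 1000 UMIs gave 61.7%, 76.9% and 73.7%. Thinning evens total UMIs only, and genes enriched in lymphocytes made up 18.5%, 10.6% and 8.96% of the members' UMIs. The part of this shift in the shares was not tested. Any UMI in Ccl5 or Nkg7 was seen in 86.5%, 87.3% and 84.6% of members, so the libraries were alike in that share, and the difference lay in cells that also held Ccr7 or Lef1. Any UMI in Ccr7 or Lef1 was seen in 45.5%, 21.9% and 25.5% of members (30.8%, 11.5% and 14.3% after thinning). The share in B cells is no background for that pair, as B cells use Ccr7 themselves. In NK cells it was 13.0%, 4.29% and 7.43%, at median depths of 2514, 2282 and 1924 UMIs.

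Cells with a UMI of the resident memory genes Cxcr6 or Pdcd1 were 26.1% (23.1 to 29.3) in CON, 11.8% (9.28 to 14.8) in HFD and 15.6% (12.7 to 18.8) in CCL4. B cells had 1.18%, 0.165% and 0.656%, and thinning gave 13.2%, 5.55% and 8.06% in CD8 T cells, with CON highest before and after thinning. Scaled to genes enriched in lymphocytes, the CPM + 10 ratio of CCL4 to CON was 1.40 for Cxcr6 and 0.890 for Pdcd1. For HFD to CON these ratios were 0.922 and 0.648. Cxcr6 was at 92.3, 48.3 and 65.2 CPM, against 131, 95.9 and 29.4 CPM in CD4 T cells. In NK cells it was at 70.6, 49.1 and 18.5 CPM. Pdcd1 was at 52.3, 16.8 and 21.7 CPM, against 50.6, 26.5 and 9.79 CPM in CD4 T cells. A Gzma UMI was seen in 35.0% of members in CON, 40.4% in HFD and 15.6% in CCL4 (29.6%, 33.4% and 10.3% after thinning), and in 6.35%, 1.65% and 1.31% of B cells. A Klre1 UMI was seen in 36.0%, 19.4% and 3.42% (21.1%, 9.80% and 1.46% after thinning), against 4.63%, 0 and 1.09% of B cells, where 0 of 606 HFD cells allows a share of up to 0.495%. A Zeb2 UMI was seen in 30.3%, 19.4% and 3.77% (16.7%, 9.48% and 1.88% after thinning). The B cell share for Zeb2 was 16.8%, 8.58% and 8.10%, in CCL4 above that of members. B cells of CCL4 held Zeb2 at 41.6 CPM, against 24.6 CPM in barcodes outside the CD8 T cells. Their share is therefore not shown to be a background for Zeb2. A Gzmk UMI was seen in 22.2%, 15.3% and 13.9% of members and in 0 B cells of any library, which allows shares of up to 0.323%, 0.495% and 0.656%.

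**Figure D4:**
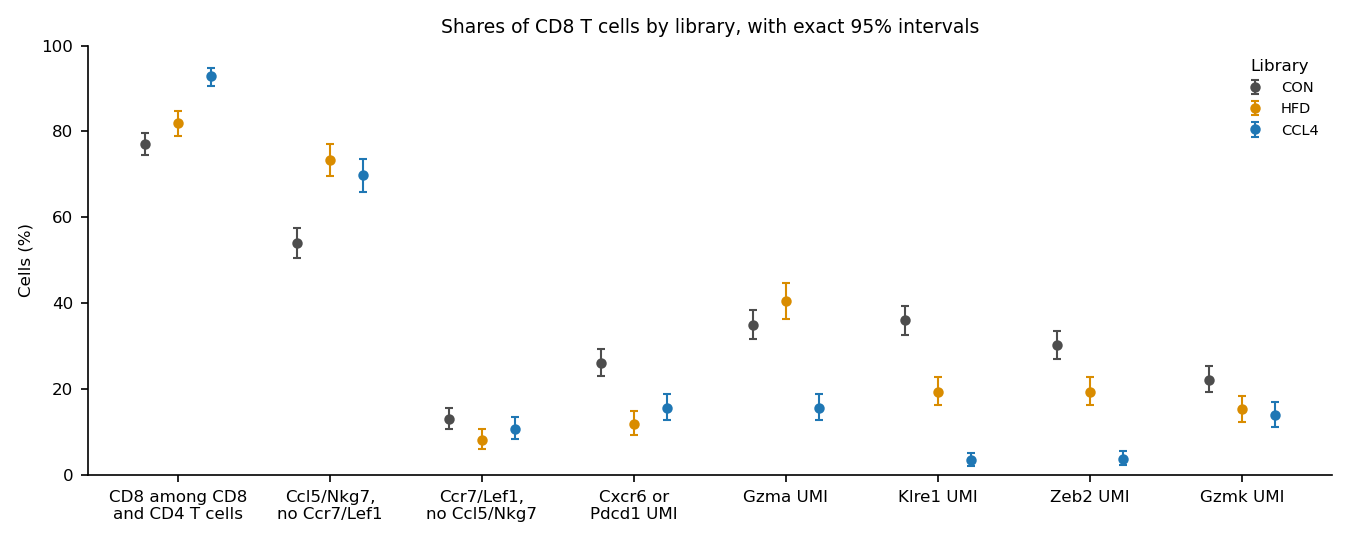
Shares of CD8 T cells in each library (y axis, percent of cells) with exact 95% intervals for counting error; the first group is the share of CD8 among CD8 and CD4 T cells. Gzma, Klre1 and Zeb2 shares in CCL4 (15.6%, 3.42% and 3.77%) lie below those in CON and HFD, and the Gzmk share in CCL4 (13.9%) lies beside that in HFD (15.3%).

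Levels were then compared between libraries as ratios of CPM + 10. Genes entered with 50 CPM or more in either library, without mitochondrial and ribosomal protein genes. In CCL4 against CON, 403 of 3632 genes (11.1%) were at least 2-fold higher and 724 (19.9%) at least 2-fold lower. Hepatocyte genes took a larger share of the members' UMIs in HFD and CCL4, and the CPM of all other genes are relative to totals that include them. The median CPM + 10 ratio of genes enriched in lymphocytes was 0.544 for HFD against CON, 0.471 for CCL4 against CON and 0.863 for CCL4 against HFD. Ratios are therefore also given after scaling each library to these genes. With that scaling 1210 genes (33.3%) were higher and 52 (1.43%) lower in CCL4 against CON. The median over all genes moved from -0.43 to 0.50 on the log2 scale, so the split of calls depended on the scaling.

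Gzma and several killer receptor genes were lowest in CCL4, below that general shift. Of 14 cytotoxic effector genes with at least 50 CPM, 8 were at least 2-fold lower in CCL4 than in CON before scaling (median log2 ratio -1.22) and 2, Gzma and Prf1, after it (median -0.27, against 0.50 over all genes). Against HFD, 3 of 11 were that much lower before scaling (median -0.49) and 1, Gzma, after it (median -0.26, against 0.11 over all genes). Gzma was at 1175 CPM in CON, 1071 in HFD and 174 in CCL4. The CPM ratio of CCL4 was 0.148 (0.129 to 0.169) to CON and 0.162 (0.141 to 0.187) to HFD, and the scaled ratios of CPM + 10 were 0.315 and 0.201. NK cells of the same libraries had 2752, 1420 and 1040 CPM, with ratios of 0.378 (0.338 to 0.422) and 0.733 (0.636 to 0.843). In B cells the ratio to CON was lower still, at 0.0907 (0.0524 to 0.147), and that to HFD was 0.624 (0.335 to 1.11). CD4 T cells, with only 2 Gzma UMIs in CCL4, gave 0.398 (0.0464 to 1.55) and 0.247 (0.0283 to 0.994), and these intervals held the CD8 T cell ratios. Barcodes outside the CD8 T cells had Gzma at 255, 76.7 and 54.6 CPM. Gzma was spread over cells, and the member with the most Gzma held 2.68%, 2.42% and 4.31% of its UMIs.

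Klre1 was at 290, 107 and 18 CPM, with CPM ratios of CCL4 of 0.0621 (0.0395 to 0.0931) to CON and 0.168 (0.105 to 0.260) to HFD. In NK cells these were 0.340 (0.262 to 0.435) and 0.762 (0.549 to 1.05). Zeb2, a transcription factor of terminal effector cells, was at 220, 114 and 19.5 CPM, with ratios of 0.0886 (0.0574 to 0.131) and 0.171 (0.108 to 0.260), against 0.316 and 0.656 in NK cells. Barcodes outside the CD8 T cells had Zeb2 at 112, 91.6 and 24.6 CPM, so it fell around the cells too and the members of CCL4 were not above that level. The macrophage gene Lyz2 was at 107, 151 and 32.2 CPM in members, and its part in the Zeb2 values was not tested. Klre1 was at 60.6, 14.2 and 11.0 CPM in the other barcodes. For both genes the CD8 T cell and NK cell intervals did not overlap in either pair, and the difference between the cell types was not tested. Against CON, B cells gave 0.192 (0.0807 to 0.392) for Klre1, an interval that overlapped that of CD8 T cells, and 0.370 (0.265 to 0.508) for Zeb2. In CD4 T cells of CCL4 there were 0 Klre1 UMIs and 1 Zeb2 UMI, and the Zeb2 ratios of 0.276 (0.00672 to 1.68) to CON and 0.110 (0.00268 to 0.665) to HFD had intervals that held the CD8 T cell ratios.

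All 5 killer cell lectin-like receptors with at least 50 CPM were at least 2-fold lower in CCL4 than in CON and than in HFD, where 101 of 2983 genes (3.39%) were that much lower. After scaling to lymphocyte genes, 4 of 5 remained so against CON, where 1.43% of all genes were, and 3 of 5 against HFD, where 74 genes (2.48%) were. Klrk1 was at 204, 91.0 and 33.0 CPM, Klrc1 at 128, 56.7 and 19.5 CPM, Klrc2 at 124, 50.4 and 15.7 CPM and Klrd1 at 408, 260 and 121 CPM. HFD lay between the other libraries for each of these genes. Against CON, 4 of the 5 were at least 2-fold lower in HFD before scaling and 0 after it. Klrg1 and Cx3cr1, markers of terminal effector cells under the 50 CPM limit, were also lowest in CCL4. Klrg1 had 63, 36 and 3 UMIs (CPM ratio of CCL4 to HFD 0.0893, interval 0.0176 to 0.283), and Cx3cr1 was at 37.7, 38.5 and 6.75 CPM. Of the effector transcription and terminal effector list, 2 of 5 genes with at least 50 CPM were at least 2-fold lower in CCL4 than in CON and 1 of 4 than in HFD, and only Zeb2 after scaling (medians of -0.02 and -0.12). Id2 was at 805, 524 and 433 CPM, Eomes at 109, 62.3 and 51.7 CPM and Ly6c2 at 233, 250 and 181 CPM.

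Several other effector genes did not share this pattern. Gzmk was at 107, 78.4 and 71.2 CPM and Ifng at 95, 98.7 and 87.7 CPM. Ccl5 was at 9284, 8104 and 7103 CPM, with a CPM ratio of CCL4 to HFD of 0.876, close to that of lymphocyte genes in general. Gzmb, in contrast, was lowest in CCL4, at 662, 451 and 190 CPM, and was also low there in NK cells. Its NK cell ratios of 0.202 to CON and 0.280 to HFD were lower than the 0.287 and 0.420 of CD8 T cells. Within Ccl5/Nkg7 cells alone, Gzma was at 1900, 1319 and 237 CPM, Klre1 at 461, 129 and 18.6 CPM and Zeb2 at 346, 135 and 21.8 CPM. The CPM ratio of CCL4 within these cells was 0.125 to CON and 0.180 to HFD for Gzma, 0.0403 and 0.144 for Klre1, and 0.0632 and 0.162 for Zeb2.

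**Figure D5:**
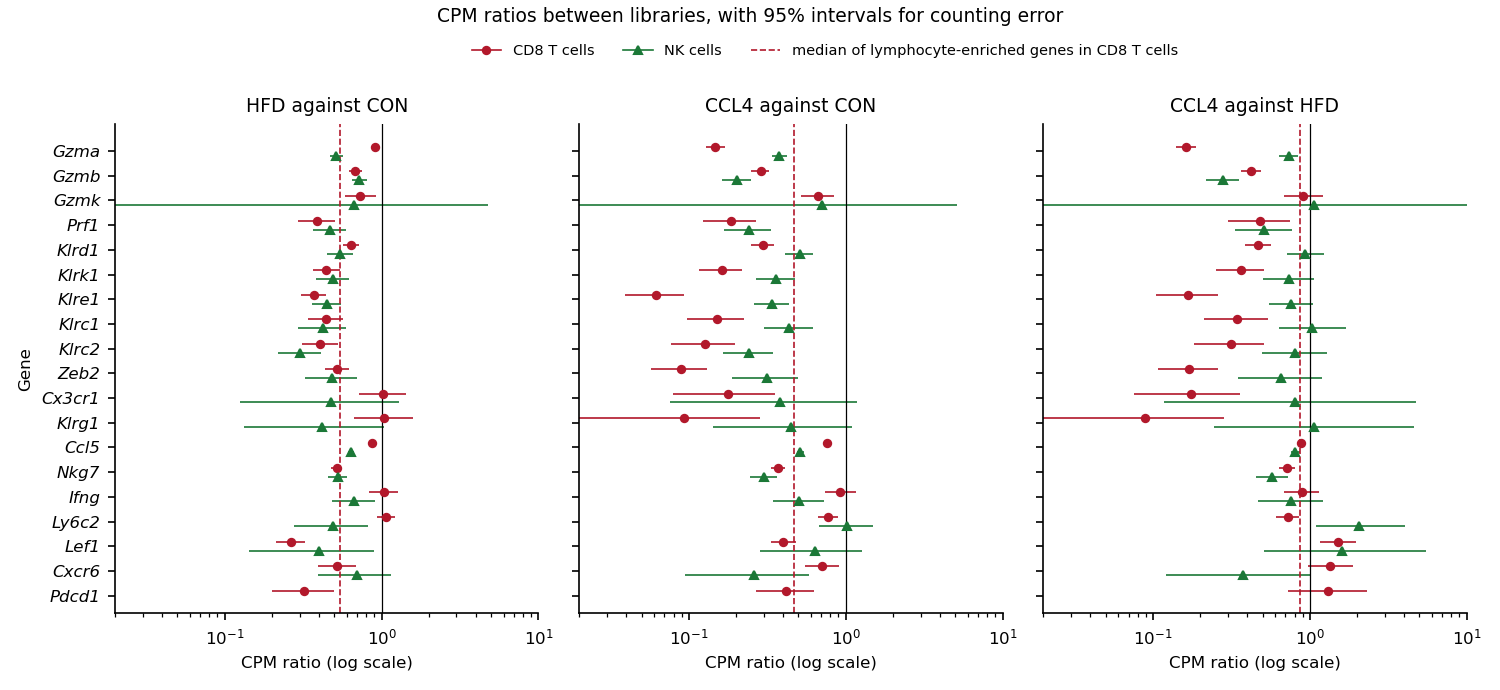
CPM ratios between libraries for 19 genes in CD8 T cells (circles) and NK cells (triangles) on a log axis, with 95% intervals for counting error, cut at the axis limits; the solid line marks equal CPM and the dashed line the median of lymphocyte-enriched genes in CD8 T cells. Gzma, Klre1 and Zeb2 in CCL4 lie left of the dashed line and of the NK cell ratios; Pdcd1 has no NK cell ratio because it was at or near 0 there.

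In HFD against CON, 343 of 3662 genes (9.37%) were at least 2-fold higher and 396 (10.8%) at least 2-fold lower, and after scaling 1053 (28.8%) and 38 (1.04%). The lowest ratios included those of some heat shock and naive cell genes. Of 16 immediate early and heat shock genes, 4 were at least 2-fold lower in HFD before scaling (median log2 ratio -0.40), and after it 1 was lower and 2 were higher (median 0.39). Hsph1, a heat shock chaperone, was at 443, 86.8 and 73.5 CPM, with a ratio of 0.196 (0.161 to 0.236) in HFD. It was lower in CD4 T cells (0.285), NK cells (0.140) and B cells (0.195) too. Hsp90aa1 (828 CPM in CON and 233 in HFD) moved alike. Lef1 was at 262 CPM in CON and 69.3 in HFD, a ratio of 0.264 (0.212 to 0.327) and of 0.486 after scaling. Of 11 naive and central memory genes, 9 were at least 2-fold lower in HFD before scaling, and after it 1 was lower and 1 was higher.

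Higher in HFD than in CON were Hsd11b1, a steroid-activating enzyme abundant in hepatocytes, at 50.0 and 147 CPM (ratio 2.94, 2.35 to 3.69), and C1qbp (100.0 and 204 CPM). Barcodes outside the CD8 T cells had Hsd11b1 at 87.8 and 140 CPM, above the members in CON and close to them in HFD. In CCL4 against CON hepatocyte genes such as Ttr (2692 and 22360 CPM) and Alb (5495 and 35842 CPM) had the larger ratios but lay below the level of the other barcodes in CCL4. Among genes with at least 100 CPM in CCL4 and there at least the level of other barcodes, the highest ratios of CPM + 10 were those of the histone gene H2bc4 (116 and 430 CPM, ratio 3.49) and of Hagh (92.3 and 301 CPM, 3.04). Other barcodes were at 232 and 422 CPM for H2bc4 and at 194 and 299 CPM for Hagh. The heat shock genes Hspa1a and Hspa1b, near-identical copies whose single values are uncertain, were at 253 and 290 CPM in CON and 41.2 and 48.0 CPM in CCL4.

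Between the treated libraries, where the general shift was small, 67 of 2983 genes (2.25%) were at least 2-fold higher in CCL4 than in HFD, and 104 (3.49%) after scaling. Maf was at 72.1 CPM in HFD and 159 in CCL4, a ratio of 2.21 (1.74 to 2.82). The ratio for Maf was 0.792 (0.539 to 1.14) in CD4 T cells and 0.583 (0.361 to 0.927) in NK cells. The interferon-induced gene Ifi27l2a was at 103 and 192 CPM (1.87, 1.52 to 2.30), against 1.22 (0.807 to 1.80) in CD4 T cells. The receptor genes Cd28, at 149 and 233 CPM (1.57, 1.31 to 1.87), and Ctla4, at 103 and 158 CPM (1.54, 1.24 to 1.91), and Lef1, at 69.3 and 105 CPM (1.52, 1.16 to 1.98), were also higher in CCL4. In CD4 T cells the ratio for Ctla4 was 0.575 (0.337 to 0.935). CON had 90.0 CPM of Maf, 139 of Ifi27l2a, 375 of Cd28 and 192 of Ctla4.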

How the data were processed

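Single-cell 3′ RNA libraries (10X Genomics) from mouse liver were measured, 1 per condition, each from a pool of 2 mice. The matrices deposited by the authors hold unnormalized UMI counts of 55357 features, made with Cell Ranger 7.2.0 per the file headers. The study's methods name the mm10 genome and the submitters' processing notes GRCm39, so no coordinates are given. How barcodes were called as cells is not given in the sources used here.

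CD8 T, CD4 T, NK and B cells were gated by UMIs as stated in the report. No doublet caller was run, and leaving out cells with over 3 times the median UMIs of their type and library stood in for one. The libraries shared 36, 49 and 52 barcodes in pairs. Of the members, 9 in CON, 4 in HFD and 5 in CCL4 shared a barcode with another library, and none with another member.

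UMI counts were summed per library and cell group and fitted with edgeR 4.0.16 (TMM, filterByExpr, quasi-likelihood test, library as a block, Benjamini-Hochberg adjustment, threshold 0.05). Groups of the same library were paired because they came from the same mice. Nothing shows that the 3 libraries of different conditions vary as replicates would, and SE and p-values hold differences between conditions. DESeq2 1.42.0 served as an alternative. Between libraries, CPM ratios carry exact conditional 95% intervals for counting error. A gene at 0 was set at a floor of 3 counts over the group. Thinned shares are exact expected values.

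Named genes were the 12 largest log2 fold changes in each direction among genes past the threshold, in the same direction in all 3 libraries and with a mean of at least 50 CPM in the higher group. Between libraries they were the 10 highest and 10 lowest ratios of CPM + 10 among genes with at least 100 CPM in the higher library and there at least the CPM of the barcodes outside the CD8 T cells. Mitochondrial, ribosomal protein and predicted genes were left out, and members of the gene lists were added. The text gives a part of these genes, and some are not reported here. The members and the lists were chosen with earlier results of these data known. Scaling to 6639 genes with at least 3 times the level in gated lymphocytes, and Ccl5/Nkg7 cells alone, were alternatives chosen after seeing the data. The fits and intervals were tested on simulated data. R 4.3.3, Python 3.11.15, numpy 2.4.6, pandas 2.3.3, scipy 1.17.1 and matplotlib 3.10.9 were used.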

Additional observations from a re-analysis of the deposited data

Results flagged for a closer look

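Among the listed genes of T cells and their programmes, markers of other cell types left out, the CPM ratios of 4 genes differed by at least 1.5-fold in opposite directions between libraries, with intervals for counting error on opposite sides of 1, and these differences between libraries were not tested. Eomes, a transcription factor of killer cells, was lower in CD8 than in CD4 T cells in CON (ratio 0.577, 0.469 to 0.713, 283 against 138 UMIs) and higher in HFD (4.71, 1.78 to 17.7, 89 against 4 UMIs). Hmgb2, a chromatin protein of dividing cells, had a CD8 to CD4 ratio of 0.540 (0.498 to 0.585) in CON and 1.59 (1.08 to 2.43) in CCL4. Egr1, an immediate early gene, had a CD8 to NK ratio of 1.51 (1.16 to 1.99) in HFD and 0.635 (0.508 to 0.797) in CCL4. Stmn1, a gene of dividing cells, had a Ccl5/Nkg7 to Ccr7/Lef1 ratio of 5.49 (2.74 to 12.9) in CON and 0.451 (0.246 to 0.875) in CCL4. Markers of other cell types also changed order between libraries. Spp1 was at 311 against 13.2 CPM in CD8 and CD4 T cells of HFD and at 59.2 against 225 CPM in CCL4. Igkc was at 27.0 against 2868 CPM in Ccl5/Nkg7 and Ccr7/Lef1 cells of CON and at 3762 against 328 CPM in HFD. That order rests on single cells, as 1 member held 820 of 924 Igkc UMIs in CON and 1 held 3169 of 4079 in HFD.

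T cell receptor variable genes, which no comparison used, were detected although 3′ libraries rarely reach them. The members held 100 Trav UMIs in CON, 35 in HFD and 16 in CCL4, and 30, 20 and 16 Trbv UMIs. A Trav UMI was seen in 9.89%, 5.75% and 2.57% of members. In CON, 47 of the 100 Trav UMIs were from Trav3-3, in 36 cells with at most 3 UMIs in a cell, against 1 UMI in HFD and 2 in CCL4.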

How the results depend on the processing

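Values are genes higher and lower, in that order. For CD8 against CD4 T cells (58 and 56), DESeq2 gave 13 and 21, the fit without the block 0 and 0, a gate of 2 UMIs on each side 29 and 19, all genes with at least 1 UMI 115 higher, and removal of cells with genes of other cell types 30 lower. Leaving out a library gave 36 to 53 and 42 to 61. For CD8 T against NK cells (421 and 343), DESeq2 gave 159 and 142, no block 22 and 19, and leaving out a library 164 to 489 and 129 to 422. For Ccl5/Nkg7 against Ccr7/Lef1 cells (207 and 283), DESeq2 gave 75 and 145, no block 14 and 18, the gate of 2 UMIs 106 and 115, all genes 359 higher, and leaving out a library 107 to 226 and 134 to 272, with 129 higher without HFD. The cause was not tested, except that fewer cells entered with the gate of 2 UMIs. Of 24 named genes in each comparison, DESeq2 still called 17, 22 and 23, and without the block 0, 18 and 17 passed.

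Between libraries, a pseudocount of 50 CPM gave 165 and 90 for HFD against CON, 218 and 188 for CCL4 against CON, and 39 and 52 for CCL4 against HFD. A minimum of 100 CPM gave 244, 412 and 67 lower, and one of 20 CPM 157 lower for CCL4 against HFD. Lymphocyte scaling gave 1053 and 38, 1210 and 52, and 104 higher for CCL4 against HFD. All 20 named genes of each pair kept their direction under that scaling, but of those at least 2-fold lower, 7 of 10 remained so for HFD against CON, 10 of 10 for CCL4 against CON and 3 of 8 for CCL4 against HFD.

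Among CD8 and CD4 T cells the CD8 share was 69.0%, 67.0% and 87.0% with the gate of 2 UMIs, and 79.7% in CON after thinning to 1000 UMIs. The Ccl5/Nkg7 share in CON was 61.7% and 59.1% thinned to 1000 and 1500 UMIs, 73.7% in CCL4 thinned to 1000, and 77.2% in HFD and 76.2% in CCL4 with the gate of 2 UMIs. The Cxcr6/Pdcd1 share was 13.2%, 5.55% and 8.06% thinned to 1000 UMIs, 17.8%, 7.86% and 11.4% to 1500, and 18.5% in HFD and 23.1% in CCL4 with the gate of 2 UMIs.

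Log2 fold changes of list genes turned in direction when a library was left out. Against CD4 T cells these lay between -1.81 and 0.47 for Ube2c, -0.74 and 0.89 for Hba-a2, -0.72 and 0.81 for Hba-a1, -1.08 and 1.93 for Cd74, and -0.62 and 1.81 for Eomes, each turning without CON. Against NK cells Spp1 lay between -0.85 (without HFD) and 1.85. Removal of cells with genes of other cell types turned S100a9 (0.04), H2-Ab1 (-1.18) and Cd74 (-0.82) against NK cells. Depth limits genes near 1 UMI per cell, and CCL4 held the fewest CD4 T cells, 45.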

Other observations

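Immunoglobulin RNA was found in CD8 T cells. Igkc was at 355, 2854 and 333 CPM in CON, HFD and CCL4, against 80.6, 265 and 166 CPM in CD4 T cells (log2 fold change 2.62, SE 0.23, adjusted p = 4.29e-07 in edgeR), a call that DESeq2 did not make. In each library 1 member held most of it, with 820 of 924 Igkc UMIs in CON (88.7%), 3169 of 4079 in HFD (77.7%) and 331 of 444 in CCL4 (74.5%). Jchain, which joins immunoglobulin chains in plasma cells, was at 60.0, 128 and 82.5 CPM against 36.9, 9.92 and 0 CPM in CD4 T cells. Its call was lost in DESeq2, without the library block, without the HFD library, without the CCL4 library and after removal of cells with genes of other cell types. It was too low to be tested without cells of over 3 times the median UMIs and with the gate of 2 UMIs.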
